A study of Mus musculus with 5 samples.

Results

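The distal sites bound in all 3 lists are REX1 peaks that also carried a peak of RNF12 WT and a peak of the catalytic mutant RNF12 H569A,C572A, away from annotated promoters. They were chosen by overlap and distance alone. A REX1 peak on chromosomes 1 to 19 or X was taken when it overlapped a peak of each RNF12 list by at least 1 bp and its summit lay more than 1 kb from every transcription start site (TSS) of GENCODE release M21. This rule selected 10040 of the 96050 REX1 peaks, among 61315 distal REX1 peaks. The lists come from ChIP-seq in female mouse embryonic stem cells (mESCs) of the hybrid strain 129/Sv-Cast/Ei, with 1 library per list and no replicates, so no test between conditions was possible and every interval given covers counting error only. REX1 was FLAG-V5-tagged in WT mESCs, and both RNF12 proteins were FLAG-V5-tagged in Rlim+/- mESCs, which keep 1 allele of the gene for endogenous RNF12, and all were precipitated through V5. Both RNF12 proteins came from vectors with the general pCAG promoter, put in by electroporation and kept by puromycin selection, so their levels need not be those of endogenous RNF12. RNF12 mESCs received 15 µM of the proteasome inhibitor MG132 for 3 h and were fixed with 1% formaldehyde and 2 mM disuccinimidyl glutarate; whether the REX1 mESCs were treated alike was not settled, since the labels and the study's text describe that library differently. The 2 control libraries were not analysed here.

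REX1, the product of *Zfp42*, is a zinc finger protein of the YY1 family that is made in naive pluripotent cells and binds a sequence close to that of YY1, around ATGGC. RNF12, also called RLIM, is a RING E3 ubiquitin ligase that marks REX1 for degradation by the proteasome, and through REX1 it acts on *Xist* and on the onset of X-chromosome inactivation. REX1 and YY1 are also known at imprinted genes and at mobile elements, whose copies fill much of the space between genes. In the mutant, a pair of residues of the RING domain that hold zinc is replaced, and the ligase is inactive.

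Before the values, the sequences that carry the pattern are shown. They are the mm10 reference (GRCm38, RefSeq), plus strand, within 50 bp of the REX1 summit, and not the alleles of these mESCs. Capitals mark the 6 REX1 strings (ATGGCTGC, ATGGCGGC, ATGGCTAC, ATGGCGAC, ATGGCTCC and ATGGCGCC) and the YY1 core string AAGATGGC on either strand; runs of capitals longer than 8 bases are strings that overlap. The first 3 sites are among those high in every list, and the next 3 lie in genes of YY1, of imprinting and of X inactivation. The site after them lies in a non-coding exon of *Gm39307*, 19371 bp outside *Zfp809*, a gene of retroelement control. The coding exon of *Zfp36l3* is 1 of the 3 sites with the most REX1 strings. The site upstream of *Papolg* has the highest REX1 fold enrichment with no string in its window.
Upstream of Rasgrf1, chr9:89879737-89879837: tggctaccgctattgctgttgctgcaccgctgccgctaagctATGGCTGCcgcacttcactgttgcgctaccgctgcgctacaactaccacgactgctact
Near Gm13998, chr2:119873180-119873280: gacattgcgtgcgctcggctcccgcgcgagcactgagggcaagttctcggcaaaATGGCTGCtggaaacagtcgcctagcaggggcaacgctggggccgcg
Coding exon of Apold1, chr6:134983726-134983826: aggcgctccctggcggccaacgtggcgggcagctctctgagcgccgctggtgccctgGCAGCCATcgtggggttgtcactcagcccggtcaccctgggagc
Intron of Yy1, chr12:108794145-108794245: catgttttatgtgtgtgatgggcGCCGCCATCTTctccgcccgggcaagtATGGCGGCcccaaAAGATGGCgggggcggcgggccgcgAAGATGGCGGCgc
Intron of Peg3, chr7:6727851-6727951: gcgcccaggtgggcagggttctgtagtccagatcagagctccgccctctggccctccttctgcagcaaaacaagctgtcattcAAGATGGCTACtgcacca
Xist, chrX:103481923-103482023: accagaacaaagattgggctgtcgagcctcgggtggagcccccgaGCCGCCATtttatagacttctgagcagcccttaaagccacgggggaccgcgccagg
Near Zfp809, chr9:22262675-22262775: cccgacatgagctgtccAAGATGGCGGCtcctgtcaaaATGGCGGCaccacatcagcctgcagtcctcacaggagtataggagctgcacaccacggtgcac
Coding exon of Zfp36l3, chrX:53774998-53775098: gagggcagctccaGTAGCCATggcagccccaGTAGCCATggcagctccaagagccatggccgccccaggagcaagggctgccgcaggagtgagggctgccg
Upstream of Papolg, chr11:23904040-23904140: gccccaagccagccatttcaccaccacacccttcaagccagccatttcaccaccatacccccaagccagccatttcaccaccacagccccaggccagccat

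A further sequence stands for the largest group of sites. Of the distal sites 3868 were joined into 1 group, each through stretches of sequence shared with at least 1 other site. The run of 30 bases found most often at their summits, in 591 of them, holds the YY1 core string. In this run the core is joined to the REX1 string ATGGCGAC and followed by CTG triplets. The run is shown from one of its sites, on the strand of the string, with the YY1 core in capitals.
Largest family, chr1:4560137-4560166, minus strand: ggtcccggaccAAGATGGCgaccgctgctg

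Of distal REX1 peaks, 16.4% (interval 16.1% to 16.7%) were in all 3 lists, against 30.4% of all REX1 peaks on these chromosomes and 55.3% of those within 1 kb of a TSS. These shares are set by the rule and are given as the background for what follows. The sites fell into 2 kinds when the 36 bases at the REX1 summit, the read length of the RNF12 libraries, were looked up in the genome. At 5407 sites these bases occurred once, and at 4633 (46.1%, 45.2% to 47.1%) they occurred again elsewhere. Single-copy and repeated are used below for these groups, a split that was made after the values had been seen. Of the 19023 promoter sites in all 3 lists 4.44% were repeated, and of the 39116 distal REX1 peaks in neither RNF12 list 8.51%. Of all 61315 distal REX1 peaks 12037 were repeated. Distal REX1 peaks that met the mutant list, with or without the WT list, held 8523 repeated and 7681 single-copy peaks. At 36.04% of the distal sites the bases had at least 10 copies, and at 13.6% at least 1000 copies. Reads of this length cannot be assigned to 1 such copy, and how the aligner's choice among copies shaped the lists was not tested.

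Both kinds met the RNF12 lists, at rates that differed. Of repeated distal REX1 peaks 38.5% (37.6% to 39.4%) were in all 3 lists, against 10.97% (10.7% to 11.3%) of single-copy ones. The gap was wider for the mutant list than for the WT list. RNF12 H569A,C572A peaks overlapped 70.8% of repeated and 15.6% of single-copy distal REX1 peaks, while RNF12 WT peaks overlapped 40.03% and 22.8%. Single-copy distal REX1 peaks thus met the WT list more often than the mutant list, and repeated ones the reverse. The share grew with the strength of the REX1 peak in both kinds. Among the 10% of peaks with the highest −log10 q it was 20.0% (18.9% to 21.1%) for single-copy and 60.4% (57.6% to 63.1%) for repeated summits, and among the lowest 10% it was 7.83% and 25.5%, though the next 10% were lower still in both.

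**Figure D1:**
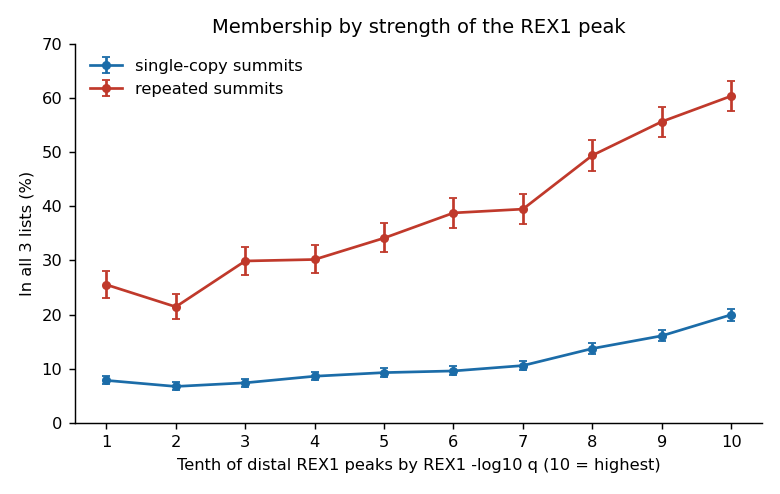
Share of distal REX1 peaks in all 3 lists (y axis, percent) in 10 equal bins of REX1 −log10 q (x axis, 10 the highest), for single-copy and repeated summits, with 95% Wilson intervals. Repeated summits reach 60.4% in the highest bin, single-copy summits 20.0%.

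Chromosome X held a larger share of its distal REX1 peaks in all 3 lists than any autosome, 30.7% (28.7% to 32.7%) against 9.45% on chromosome 12 to 21.04% on chromosome 6. Repeated summits made up 72.3% of the 636 sites on X, and 20.7% of those on chromosome 11. Of all distal REX1 peaks, 1036 of 2075 were repeated on X and 395 of 4395 on chromosome 11. With single-copy summits alone the share on X was 16.9% (14.8% to 19.3%), against 10.8% (10.6% to 11.1%) over all autosomes, and the interval of X met those of chromosomes 7, 18 and 19, the highest of which was 15.1% (13.9% to 16.5%) on chromosome 7. With repeated summits alone X had 44.4%, below chromosome 6 with 50.7% (47.2% to 54.1%). Chromosome 12 was lowest in both kinds, with 6.19% and 23.6%.

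**Figure D2:**
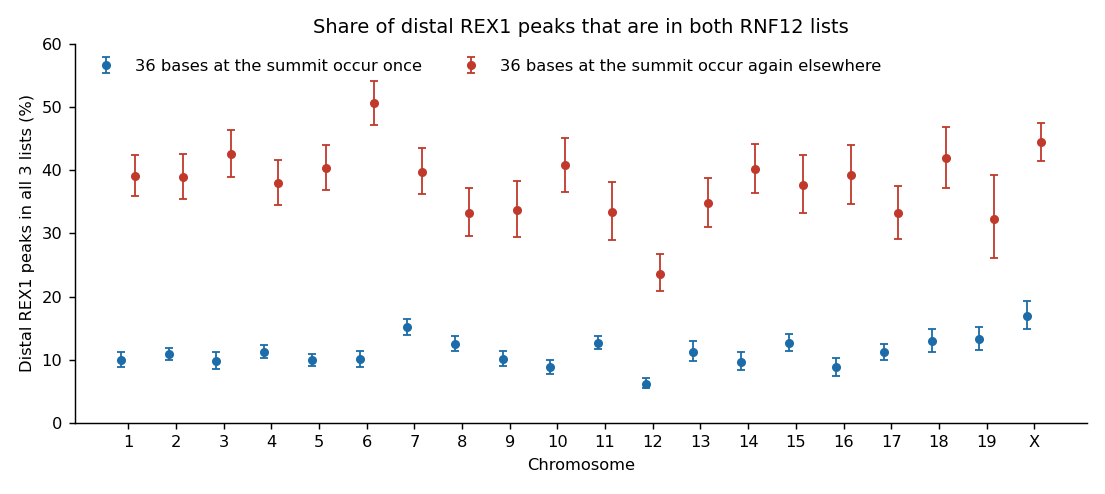
Share of distal REX1 peaks in all 3 lists (y axis, percent) on each chromosome (x axis), split by whether the 36 bases at the summit occur once or again elsewhere, with 95% Wilson intervals. Repeated summits lie above single-copy summits on every chromosome, X leads among single-copy summits with 16.9%, and chromosome 12 is lowest in both.

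Fold enrichment, the authors' ratio of signal to control at the summit, was read within each list, as a percentile rank of its peaks, because the control behind each list was not settled and the depth is unknown. Overlap chose the sites, so their strengths are a description. The median REX1 fold enrichment was 4.59 (quartiles 3.69 and 5.97), at percentile 53.9 of the REX1 list. The strongest RNF12 WT partner had a median of 4.31, at percentile 40.5, and the strongest RNF12 H569A,C572A partner a median of 11.2, at percentile 78.9.

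Single-copy and repeated sites took different positions in the RNF12 lists. At single-copy sites the median ranks lay near each other, at percentile 55.7 for REX1, 60.8 for RNF12 WT and 56.0 for the mutant, with fold enrichments of 4.68, 4.99 and 7.35. At repeated sites REX1 stood at percentile 50.9, RNF12 WT at 21.4 and the mutant at 96.2, with fold enrichments of 4.49, 3.67 and 21.4. Of repeated sites 72.2% (70.9% to 73.5%) had a partner in the highest 10% of the mutant list, and 2.65% (2.23% to 3.16%) one in the highest 10% of the WT list. Of single-copy sites it was 8.16% and 17.1%. Promoter sites in all 3 lists had 23.1% in the highest 10% of the mutant list and 25.8% in that of the WT list.

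**Figure D3:**
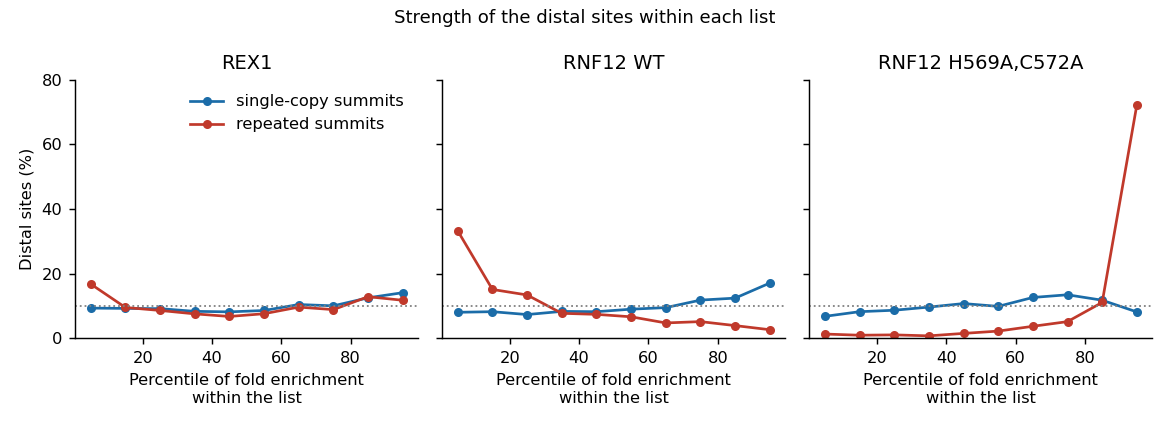
Share of distal sites (y axis, percent) by percentile of fold enrichment within each list (x axis, in bins of 10%), with panels for REX1, RNF12 WT and the mutant from left to right; the dotted line marks the 10% that each bin would hold in an even spread. Repeated sites gather in the lowest 10% of the WT list (33.2%) and the highest 10% of the mutant list (72.2%), while single-copy sites are spread over all bins.

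Across sites, the rank of REX1 and that of RNF12 WT went together weakly, with a Spearman correlation of 0.188 over all 10040 sites, 0.119 over single-copy and 0.246 over repeated sites. Between RNF12 WT and the mutant it was −0.187 over all sites but 0.120 within single-copy and 0.311 within repeated sites, so the sign was positive within each kind. The points of each correlation share a pair of libraries and are not independent, and some share a peak: 9.44% of the sites shared an RNF12 WT peak and 20.6% a mutant peak with another site.

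Because the peaks had to overlap, the distances between their summits are a description. The RNF12 WT summit was a median of 51 bp (50 to 53) from the REX1 summit and the mutant summit 60 bp (58 to 62), against 63 bp and 92 bp at promoter sites. Within 50 bp were 49.4% of the RNF12 WT summits and 44.3% of the mutant summits. REX1 peaks of the sites were wider, with a median of 227 bp, than distal REX1 peaks in neither RNF12 list, with 138 bp; a wider peak also has more room to overlap. At the edges of the rule, 118 sites had a TSS 1001 to 1050 bp away, with median fold enrichments of 4.59, 5.05 and 8.15 in REX1, RNF12 WT and mutant, and another 118 peaks in all 3 lists stood just outside, at 951 to 1000 bp, with 4.74, 4.65 and 8.73. An overlap of 10 bp or less was all that joined 92 sites to the WT list and 43 to the mutant list.

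The sites were also grouped by sequence. They were joined into a family when the 201 bp around their REX1 summits shared at least 30 words of 12 bases on either strand. Joining was chained from site to site, so the members of a family need not all share words with each other. This placed 4891 sites in 128 families and left 5149 alone. The largest family had 3868 sites (38.5% of all) on every chromosome, with a median of 464 copies of the summit's 36 bases. Of these sites 3545 had a repeated summit and the others counted as single-copy, so the single-copy values above and below include some sites of this family. No repeat annotation was used, so the family is not named here, but its layout is that of a tandem array. Of its sites 70.8% (69.3% to 72.2%) had at least 2 copies of AAGATGGC on 1 strand within 1 kb of the summit, and of the 7132 distances between neighbouring copies 66.5% were exactly 212 bp and 91.4% between 200 and 220 bp. As background, the promoters of mouse LINE-1 elements are built of tandem units; whether the family is of that kind was not tested.

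On X, 67.5% (63.7% to 71.0%) of the sites belonged to this family, and on autosomes 36.6% (35.6% to 37.5%). The same shares over all distal REX1 peaks were not counted. Of those peaks, 1036 of 2075 on X and 11001 of 59240 on autosomes had repeated summits. The family's REX1 fold enrichments ran from 1.74 to 17.7 with a median of 4.67. Its RNF12 WT values ran from 1.55 to 9.72 with a median of 3.72. Its mutant values ran from 3.496 to 53.2 with a median of 23.1. These medians stood at percentiles 55.6, 22.4 and 97.2 of their lists. Counted over all distal REX1 peaks that carried at least 30 words common in the family, 6002 in number, 64.2% (63.0% to 65.4%) were in all 3 lists, 34.5% met the mutant list alone, 7 peaks met the WT list alone and 1.13% met neither. The words were taken from sites chosen for their overlap with both RNF12 lists, so these shares partly restate the rule and are a description.

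In the peak lists, the summits took different places in the repeat unit. At most of these sites the reads cannot be assigned to 1 copy. Neighbouring sites can share a peak, and each list is 1 library. Whether alignment or differences between the libraries shaped these places was not tested. In the 3423 sites of the family with an AAGATGGC within the joined extent of the 3 peaks, REX1 summits lay a median of 39.5 bp (37.5 to 40.5) from the centre of the nearest copy, mutant summits 67.5 bp (66.5 to 68.5) and RNF12 WT summits 76.5 bp (74.5 to 77.5). On the strand of the string, REX1 summits had their median 23 bp past its first base, and the mutant and WT summits 64 bp and 59 bp past it. Within 25 bp of the string were 36.1% (34.5% to 37.7%) of REX1 summits but 4.85% (4.18% to 5.62%) of mutant and 8.06% (7.20% to 9.02%) of WT summits. The leading 8-base words over the flanks at repeated sites were CAGCAGCA at REX1 summits (41.0% against 4.45%), CTGTCCTC at RNF12 WT summits (44.7% against 4.89%) and AGGACAGG at mutant summits (56.5% against 0.550%). Both RNF12 words lie in the same stretch, since CTGTCCTC reads GAGGACAG on the opposite strand.

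**Figure D4:**
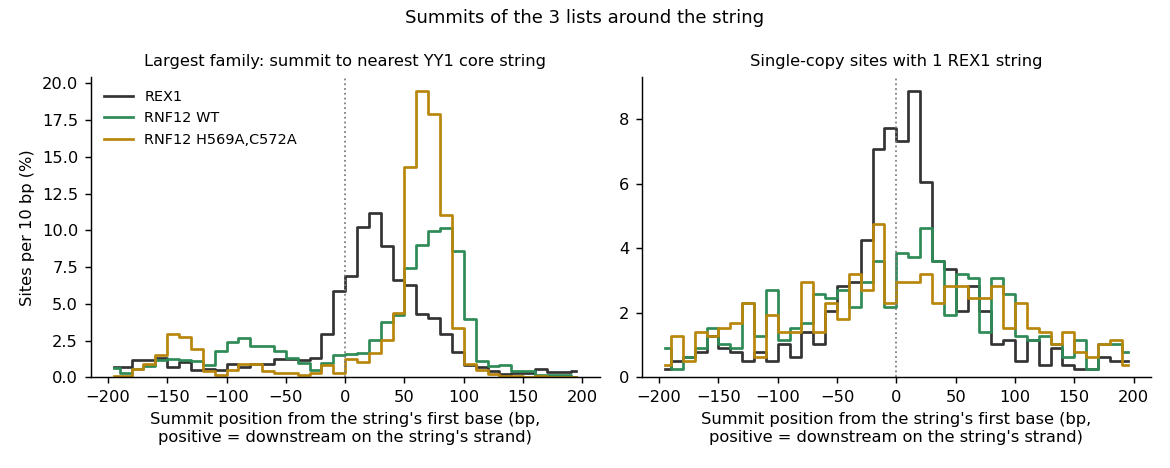
Position of the summits of each list (x axis, bp from the first base of the string, positive downstream on its strand) as a share of sites per 10 bp (y axis, percent). Left, 3423 sites of the largest family around the nearest AAGATGGC, where mutant summits have their median at 64 bp and REX1 summits at 23 bp; right, 777 single-copy sites with 1 REX1 string, where REX1 summits gather at the string and RNF12 summits spread more widely.

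The smaller families differed in their strings. The second, 316 sites with a median of 612 copies, had no REX1 string at any summit but the NFY string CCAATCAG at 56.96%, and was again at low rank in RNF12 WT (percentile 16.0) and at high rank in the mutant (percentile 95.03). Of the 1133 distal REX1 peaks with its common words, 27.9% were in all 3 lists and 70.7% met the mutant list alone, with the same limit on how the words were chosen. The third family, 73 sites, lay on chromosome 6 only and had no REX1 or YY1 core string at a summit, and the fourth, 49 sites, lay on chromosomes 5 and 7 with the mutant at percentile 47.8. Another, of 37 sites on 20 chromosomes, held AAGATGGC at 24.3% of its summits with the mutant at percentile 44.2. The families of 49 and 37 sites were thus near the middle of the mutant list.

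Strings at the summit were compared with windows of the same width centred 300 bp to either side of the same summit. A REX1 string was present at 25.8% (24.9% to 26.6%) of the distal sites and in 4.92% of flanks, a ratio of 5.24. Of the 2588 sites with a string, 2034 were repeated. At single-copy sites it was 10.2% (9.47% to 11.1%) against 2.34%, a ratio of 4.38. Promoter sites had 11.4% against 2.25%, a ratio of 5.07, and distal REX1 peaks in neither RNF12 list 10.8% against 1.68%, a ratio of 6.44. The YY1 core string AAGATGGC, which shares ATGGC with the REX1 strings, was at 3.05% of single-copy summits against 0.915% of flanks, and at 39.6% of repeated summits against 7.62%.

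Of other strings at single-copy sites, the NRF1 string GCGCATGCG, bound by a regulator of mitochondrial and growth genes at CpG-rich promoters, was at 0.518% (0.359% to 0.747%) against 0.111% of flanks. It was at 1.08% of promoter sites and 0.105% of distal peaks in neither RNF12 list. The KLF string GGGNGTGGC, of the family of *Klf4*, was at 2.76% against 1.12%, and the CTCF string CCTNGTGGC, of the protein that holds chromatin loops, at 1.28% against 0.610%. Distal peaks in neither RNF12 list also held both above their flanks, KLF at 2.82% against 0.855% and CTCF at 0.882% against 0.451%. The triplet run CAGCAGCAG was at 3.59% against 1.13%, and in distal peaks in neither RNF12 list at 1.20% against 0.4998%. The AP-1 string TGAGTCA, a mark of enhancers bound by FOS and JUN, was at 1.89% (1.56% to 2.28%) against 1.36% (1.16% to 1.60%) of flanks, and these intervals met. In distal peaks in neither RNF12 list it was at 3.77% (3.58% to 3.96%). For the octamer ATGCAAAT and the SOX string CCATTGTT, bound by OCT4 and SOX2, the summit intervals of single-copy sites met those of the flanks (0.166% against 0.333%, and 0.351% against 0.277%). In distal peaks in neither RNF12 list the SOX string was at 0.877% against 0.387%.

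**Figure D5:**
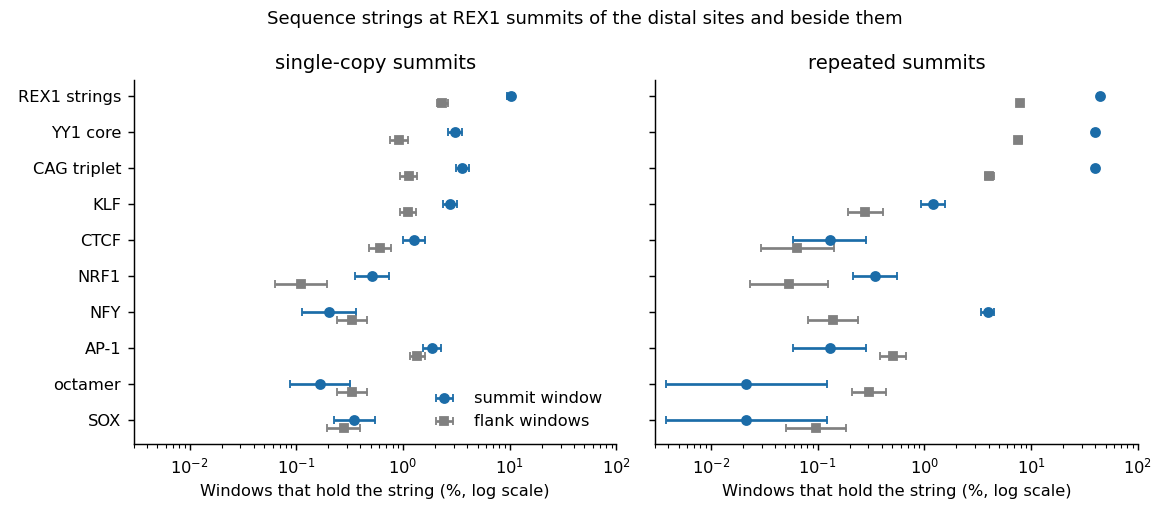
Share of windows that hold a string (x axis, percent, log scale) at the REX1 summit (circles) and in the flanks (squares), each window reaching 50 bp to either side of its centre, for single-copy and repeated distal sites, with 95% Wilson intervals. REX1 strings reach 10.2% of single-copy and 43.9% of repeated summits; the NFY string exceeds its flanks at repeated summits, 3.93% against 0.140%, and not at single-copy summits.

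At single-copy sites with exactly 1 REX1 string within the joined extent of the 3 peaks, 777 in number, the string was nearest the REX1 summit. Its centre was a median of 43.5 bp (36.5 to 50.5) from the REX1 summit, 87.5 bp (81.5 to 96.5) from the RNF12 WT summit and 97.5 bp (84.5 to 106.5) from the mutant summit. Within 25 bp were 37.2% of REX1, 18.1% of WT and 16.2% of mutant summits. The leading word at REX1 summits of single-copy sites was GCAGCAGC (5.73% against 2.18%), followed by the REX1 string ATGGCTGC (4.14% against 0.675%). GCAGCAGC also led at RNF12 WT summits (5.94% against 2.39%) and mutant summits (6.84% against 2.40%), where the GC-rich word GCCCCGCC followed (5.55% against 1.44%).

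The distal sites were richer in GC and CpG than distal REX1 peaks in neither RNF12 list; distal peaks that met 1 RNF12 list only were not measured for this. The median GC content within 50 bp of the summit was 64.4%, against 67.3% at promoter sites and 54.5% at distal peaks in neither RNF12 list. Over 501 bp, 35.9% (35.0% to 36.9%) of the sites were like a CpG island (GC over 50%, observed to expected CpG over 0.6), against 82.6% of promoter sites and 1.81% of distal peaks in neither RNF12 list. Single-copy sites alone had 36.6% (35.3% to 37.9%). CpG islands mark most promoters, and 10.3% (9.50% to 11.1%) of single-copy sites lay within 1 kb of a TSS that RefSeq lists and GENCODE does not, against 4.13% of single-copy distal peaks in neither RNF12 list.

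By annotation, 49.8% of the sites lay outside genes, 29.7% in introns, 16.9% in coding exons, 2.23% in untranslated regions and 1.44% in exons of non-coding transcripts. The median distance to a TSS was 11675 bp, and 5579 bp for single-copy against 25613 bp for repeated sites. Repeated sites were outside genes at 68.7% and in coding exons at 1.23%. Single-copy sites were in coding exons at 30.3% (29.05% to 31.5%), against 20.7% (20.1% to 21.3%) of single-copy promoter sites in all 3 lists and 5.45% (5.22% to 5.69%) of single-copy distal peaks in neither RNF12 list.

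These 1636 sites in coding exons lay in 1266 genes. The exons were long, with a median of 593.5 bp (538 to 636) against 203 bp (196 to 212) for the coding-exon peaks in neither RNF12 list, and 31.2% against 17.6% were of 1 kb or more. Of these sites 51.3% (48.9% to 53.7%) were like a CpG island, against 5.13% of the others. Most genes, 982, had 1 such site. The leaders were *Sptbn4*, a spectrin of axons, and *Zfhx3*, a large zinc finger and homeobox factor, with 7 sites each, then *Map1s* and *Ryr1* with 6, and *Skor2* and *Tchh* with 5.

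A few sites met other annotated elements. Of the sites 21 overlapped a tRNA gene (0.209%, 0.137% to 0.320%), against 13 of the 39116 distal peaks in neither RNF12 list (0.0332%). At the tRNA-Ile gene chr17:83861944-83862036 the fold enrichments were 3.21 in REX1, 10.8 in RNF12 WT and 9.56 in the mutant. Enhancers recorded by RefSeq were met by 58 sites, all of them single-copy, a share of 1.07% of single-copy sites against 0.559% of single-copy distal peaks in neither RNF12 list. Among these were the reporter-tested elements on either side of *Nanog*, which encodes a core factor of pluripotency. The upstream element had a site with fold enrichments of 5.86, 4.39 and 8.26 in REX1, RNF12 WT and the mutant, and the downstream element had sites with 4.61, 8.58 and 11.2, and with 5.79, 6.39 and 18.2.

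The strongest sites in every list were picked by the lowest of their 3 percentile ranks. First was the site chr9:89879603-89879970, 30121 bp upstream of *Rasgrf1*, with fold enrichments of 28.1 in REX1, 15.8 in RNF12 WT and 28.4 in the mutant and a lowest percentile of 98.8. Its 36 bases occur once, the RNF12 WT summit is 1 bp and the mutant summit 23 bp from the REX1 summit, and ATGGCTGC lies within its window of GCT and GCC triplets. *Rasgrf1* is a paternally expressed imprinted gene whose methylated control region lies upstream of it; it was not on the imprinted list used here.

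The next sites had lower ranks in at least 1 list. The site near *Gm13998*, chr2:119872638-119873498, had 19.3, 8.42 and 22.8 in REX1, RNF12 WT and the mutant, and the coding exon of *Apold1*, a gene of blood vessel cells, had 18.1, 14.0 and 21.5. A site in a coding exon of *Sarm1*, the NAD-cleaving enzyme of axon degeneration, had 9.52, 8.49 and 23.4, with no REX1 string in its window. A site chr16:42190226-42190548 also had no string, with 10.1, 9.72 and 23.2. On X, the site 34610 bp downstream of the *Eif2s3x* TSS had 9.94, 10.5 and 20.3, and that near *Gm14549* 10.6, 10.1 and 20.1. The remaining 3 of the 10 belonged to the largest family, at chr8:67659914-67660343, chr3:120938566-120939203 and in an intron of *Ntrk3*, with mutant values of 38.9, 43.4 and 48.2 and 1882, 2371 and 40 copies of their bases. Over all 10, the lowest of these percentiles was 94.15.

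The highest REX1 values did not always come with high mutant values. The site upstream of *Papolg*, a poly(A) polymerase gene, had 43.4 in REX1, 14.5 in RNF12 WT and 9.10 in the mutant (percentile 69.1). Its window repeats the letters gccagccat. The *Tsix* site chrX:103448146-103449760, 1467 bp downstream of the TSS in the antisense partner of *Xist*, had 41.2, 9.81 and 16.3. A site near *Gm6858* on X had 37.8 in REX1 and 14.2 in RNF12 WT but 5.29 in the mutant, at percentile 24.5, with ATGGCTGC in its window.

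Most sites had few REX1 strings. Of the sites, 61.3% had none within 150 bp of the summit, 33.9% had 1, 4.64% had 2, while 11 sites had 3, 1 had 4, 2 had 5 and 3 had 6. The sites with 6 were a coding exon of the X-linked gene *Zfp36l3*, whose protein binds RNA, and a pair in an intron of *Sfxn2*. *Zfp36l3* had 14.3 in REX1, 5.60 in RNF12 WT and 5.36 in the mutant. The *Sfxn2* sites had 4.42 and 2.47 in REX1, 2.63 and 2.63 in RNF12 WT and 2.88 and 4.63 in the mutant, with 11 and 10 copies of their bases.

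Listed genes were taken to have a site when one lay in the gene or within 20 kb of it, which held for 28.8% of all 21728 protein-coding genes. Of 25 pluripotency genes 12 (48%) had a site, of 12 X inactivation genes 9 (75%), of 31 imprinted genes 10 (32.3%), of 17 TGF-beta and Nodal genes 8 (47.1%), of 15 genes of chromatin architecture and YY1 partners 4 (26.7%), and of 17 genes of the early embryo's 2-cell state and of retroelement control 3 (17.6%). Listed genes differ in length and lie near each other, so that 1 site can count for several genes, and no test was made of these shares.

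Among pluripotency genes, a coding exon of *Tbx3*, a T-box repressor, had 10.2 in REX1, 4.15 in RNF12 WT and 8.01 in the mutant. A site 12212 bp outside *Klf4* had 8.09, 7.63 and 18.02, at percentiles 93.2, 96.0 and 93.4. *Sox2*, *Esrrb*, *Dppa3* and *Mycn* had 2 sites each, *Tbx3* and *Klf4* 3 each, and *Nanog* 1 site 1421 bp from its TSS with 5.09, 3.67 and 6.33. *Pou5f1*, *Prdm14* and *Tfcp2l1* had none by this rule.

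At the X-inactivation centre, REX1 was high and the RNF12 lists were not uniformly so. The site in the 5′ part of *Xist*, chrX:103481517-103482441, had 19.8 in REX1 (percentile 99.8), 4.39 in RNF12 WT (percentile 42.6) and 7.79 in the mutant (percentile 60.2), with the reverse of ATGGCGGC near its summit. A site in an intron of *Ftx*, a non-coding activator of *Xist*, had 14.3, 3.46 and 6.89 and no string in its window. The *Yy1* intron site chr12:108794048-108794358 had 9.75 in REX1, 2.74 in RNF12 WT (percentile 4.15) and 17.5 in the mutant (percentile 92.7). Its window, printed at the start, holds AAGATGGC 3 times, on both strands.

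At imprinted genes, the *Igf2r* intron site chr17:12688009-12688311 had 14.5, 5.97 and 9.15 in REX1, RNF12 WT and the mutant, and the *Peg3* intron site chr7:6727577-6729094 had 13.9, 6.08 and 5.00. At *Peg3* the nearest RNF12 WT summit lay 670 bp and the nearest mutant summit 557 bp from the REX1 summit. Both were outside the window printed at the start. *Peg3* encodes a zinc finger protein, and the start of the gene is known for a row of YY1 sites. The *Peg10* intron site, chosen after its values were seen, ranked higher in the RNF12 lists than in REX1, with 6.13 in REX1 (percentile 82.3), 13.0 in RNF12 WT (percentile 99.9) and 18.9 in the mutant (percentile 94.3). The site 11315 bp upstream of *Ndn* belonged to the largest family, with 7.96, 4.38 and 22.9.

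In the other lists REX1 values ranged widely. *Id3* and *Id1*, which encode inhibitors of helix-loop-helix factors and respond to BMP signals, had sites outside the genes with 7.34, 4.45 and 9.80, and with 6.14, 5.74 and 4.72, while one 15732 bp outside *Smad4*, a transducer of TGF-beta signals, had 6.04, 4.78 and 12.9. The site 1285 bp upstream of *Ruvbl2*, which encodes an ATPase of the INO80 complex, lay in an intron of *Gys1* and had 10.6, 4.94 and 7.30, and a site downstream of the *Smc3* TSS 9.56, 7.11 and 4.40. The site 19371 bp outside *Zfp809*, whose product silences retroviral sequences, had 20.1 in REX1, 4.20 in RNF12 WT and 4.51 in the mutant, with a pair of ATGGCGGC copies, 1 of them overlapping AAGATGGC. *Dnmt3a*, a DNA methyltransferase, had 5 sites, the strongest with 6.73, 5.17 and 17.1 in REX1, RNF12 WT and the mutant, where the nearest mutant summit lay 2041 bp from the REX1 summit. A coding-exon site where the annotated extents of *Trim28*, which encodes a corepressor of retroelements, and *Zbtb45* overlap had 5.80, 5.26 and 7.23, and its exon was not assigned to either gene.

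Joined where the next site lay within 12500 bp, the sites formed 7576 clusters, of which 5945 were single sites and 64 had 5 or more. The largest, chr6:114490622-114636973, had 74 sites with *Atg7* or *Hrh1* as the nearest TSS, 71 of them repeated, with median fold enrichments of 3.75, 2.90 and 10.7 in REX1, RNF12 WT and the mutant. The next were also on chromosome 6, with 39 sites at chr6:47650725-47686572 and 37 at chr6:47739219-47778185, near *Rny3*, a Y RNA gene, and their median REX1 values were 2.47 and 2.21. Of these, 37 and 37 were repeated. On X, 14 sites lay at chrX:75729682-75759252 and 9 at chrX:169991453-170021415, by *Mid1*. The clusters with the most sites and no repeated summit were those at *Espn* (8 sites) and at *Tbx2* and *Shank3* (7 each).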

How the data were processed

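Peak lists of V5 ChIP-seq for the catalytic mutant RNF12 H569A,C572A, RNF12 WT and REX1 were used as deposited, 1 library each. According to the methods and processing notes, the authors trimmed the reads with Trim Galore 0.6.7, aligned them with Bowtie2 2.5.0 to mm10 masked at differences between the parental strains, merged the alleles with SAMtools 1.10 and called narrow peaks with MACS2 2.2.7.1. How reads with several equal alignments were handled is not given in the sources used here. The deposited values are a fold enrichment, the ratio of signal to control at the summit, and −log10 q-values, which the authors took from MACS2; a score column was not used. Read totals are not in the lists, so the depth is unknown.

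Here, overlaps, distances to GENCODE M21 TSSs, annotation at the summit, strings in windows of 50 bp to either side of the summit and of points 300 bp away, copies of the 36 bases at the summit on chromosomes 1 to 19, X and Y, and families of like sequence were computed on GRCm38 with Python 3.11.15, numpy 2.4.6 and pandas 2.3.3. Shares have 95% Wilson intervals and medians 95% order-statistic intervals, for counting error only. Strongest partners gave the RNF12 values and nearest summits the distances. The steps for overlap, strings and families were tested on simulated data.

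The sites, lists and alternatives were chosen with earlier results of these data known. Named sites are the 10 with the highest of the lowest percentile (1 per 100 kb), the 3 highest in REX1, up to 3 per gene list by REX1 fold enrichment, the 5 largest clusters and the 3 with the most REX1 strings; tRNA genes, RefSeq enhancers and leading coding-exon genes were named after their values were seen. Sequence is not shown for every named site. One site that the rule names is not reported here.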

Additional observations from a re-analysis of the deposited data

Results flagged for a closer look

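The rule leaves out chromosome Y and unplaced scaffolds, although REX1 peaks there also met both RNF12 lists: 122 of 201 REX1 peaks on chromosome Y (60.7%, interval 53.8% to 67.2%) and 26 of 105 on scaffolds (24.8%, 17.5% to 33.8%) were in all 3 lists. They are flagged because they are a signal outside the sites described, in mESCs labelled female. The shares stand beside 30.4% of REX1 peaks on chromosomes 1 to 19 and X. The control libraries were not analysed here, and the origin of the peaks was not tested.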

How the results depend on the processing

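No paired analysis was possible because each list comes from 1 library. Of 93 values recomputed, 40 stayed within their counting interval or, for counts of sites, within 1.5 times the count, and 53 moved further. Only the correlation of REX1 and RNF12 WT could be marked as reversed in sign, and it was so marked in 0 settings. The correlation of RNF12 WT and the mutant was not recomputed. The count of sites, 10040, was 9278 with −log10 q of 2 or more, 7939 beyond 3 kb from every TSS and 12105 with protein-coding TSSs only. It fell to 3580 with −log10 q of 5 or more in every list, to 584 with the 20000 highest peaks of each list, to 2729 with an overlap of 50% of both peaks, to 5494 with summits within 100 bp and to 5407 with single-copy summits. The single-copy setting was chosen after seeing the data. In the same order the share of distal REX1 peaks was 11.3%, 5.38%, 4.45%, 8.96% and 10.97%, and it was 15.9% with −log10 q of 2 or more, 16.0% beyond 3 kb from every TSS and 17.6% with protein-coding TSSs only. The share outside genes was 51.5% at a −log10 q of 5, 59.6% with 20000 peaks, 48.2% with 50% overlap, 57.4% beyond 3 kb, 43.9% with protein-coding TSSs and 33.6% at single-copy summits. The share with a REX1 string was 28.3%, 41.3%, 14.9%, 29.6%, 23.5% and 10.2% in that order, 20.95% with summits within 100 bp, 15.7% within 25 bp of the summit, 36.04% within 100 bp and 8.77% without soft-masked bases. The ratio of summit to flank was 5.75 at a −log10 q of 5, 6.43 with 20000 peaks, 6.55 with 50% overlap, 4.38 at single-copy summits, 7.94 within 25 bp, 2.15 within 100 bp and 4.59 without soft-masked bases. The share with a soft-masked base was 54.4%, 66.6% and 46.0% in the first 3 of these settings, 55.1% with summits within 100 bp, 64.8% beyond 3 kb, 51.3% with protein-coding TSSs and 26.9% at single-copy summits. The median distance from the REX1 to the RNF12 WT summit was 36 bp with 50% overlap, 34 bp with summits within 100 bp and 55 bp at single-copy summits, and that to the mutant summit 34 bp and 33 bp in the first 2 of these. The correlation of REX1 and RNF12 WT was 0.248 at a −log10 q of 5, 0.443 with 20000 peaks, 0.211 beyond 3 kb, 0.119 at single-copy summits and 0.115 when −log10 q replaced fold enrichment. The cause of these moves was not tested beyond the fewer sites that a setting leaves. With 1 library per list, spread between samples cannot be given, and without read totals a missing peak cannot be told from one below detection.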
